A study of Mus musculus with 21 samples.

Results

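Germ-free mice and specific pathogen free (SPF) mice that drank the same zinc-supplemented water were compared by bulk RNA-seq of their Paneth cells (PCs). The comparison took the 4 germ-free and 3 SPF libraries on zinc water, 7 of 21 libraries in the series. Both groups received ZnSO4 in their water for 7 weeks, given as 200 mM in the labels, and neither received antibiotics. PCs had been collected from the small intestine by FACS and their RNA made into stranded mRNA libraries. The mice were C57BL/6J in the study's methods, while the labels give no age, sex, cage or time of day for them. The study's text describes its sorted PC samples as taken from individual mice, and the labels do not link libraries to animals. Because both groups drank zinc, the comparison holds zinc constant and does not measure a zinc effect.

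PCs sit at the base of the small intestinal crypts and release granules that hold α-defensins (products of the mouse Defa genes), lysozyme, phospholipase A2 and lectins. Some gut antimicrobials need bacteria for their expression, of which the Reg3 lectins are the textbook example, whereas α-defensin transcripts are made without bacteria as well. The gut epithelium also runs a circadian clock, a loop in which BMAL1 with CLOCK or NPAS2 drives the PER, CRY and REV-ERB repressors. Germ-free mice are reared without any bacteria, and SPF mice carry a flora without listed pathogens.

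The libraries held 9888174 to 12936001 counts in germ-free mice and 12052705 to 12317452 in SPF mice. The groups differed in how these counts were spread over genes. The 28 Defa genes took 41.6, 41.6, 39.3 and 42.0% of counts in germ-free replicates 1 to 4 and 36.4, 33.8 and 35% in SPF replicates 1 to 3. All germ-free libraries lay above all SPF libraries (41.1% ± 1.22 against 35.1% ± 1.3, SD, n = 4 and 3), and the two-sided exact permutation p was 0.0571, the smallest this design allows. The exact 95% binomial (Clopper-Pearson) interval in germ-free replicate 1, the library with the fewest counts, was 41.6 to 41.7% and covers counting error only. A further 16 Paneth granule genes took 18.4 to 22.8% against 17.9 to 18%. The 18S ribosomal RNA gene Rn18s-rs5 took 10.03, 4.76, 6.18 and 3.37% in germ-free replicates against 4.22, 2.04 and 2.71% in SPF replicates, so the groups overlapped. The 10 most abundant genes held 60.7 to 71.5% of counts in germ-free and 50.9 to 55.4% in SPF libraries. TMM factors, which rescale a library so that most genes keep their level, were accordingly 0.522 to 0.834 in germ-free and 0.996 to 1.17 in SPF mice.

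**Figure D1:**
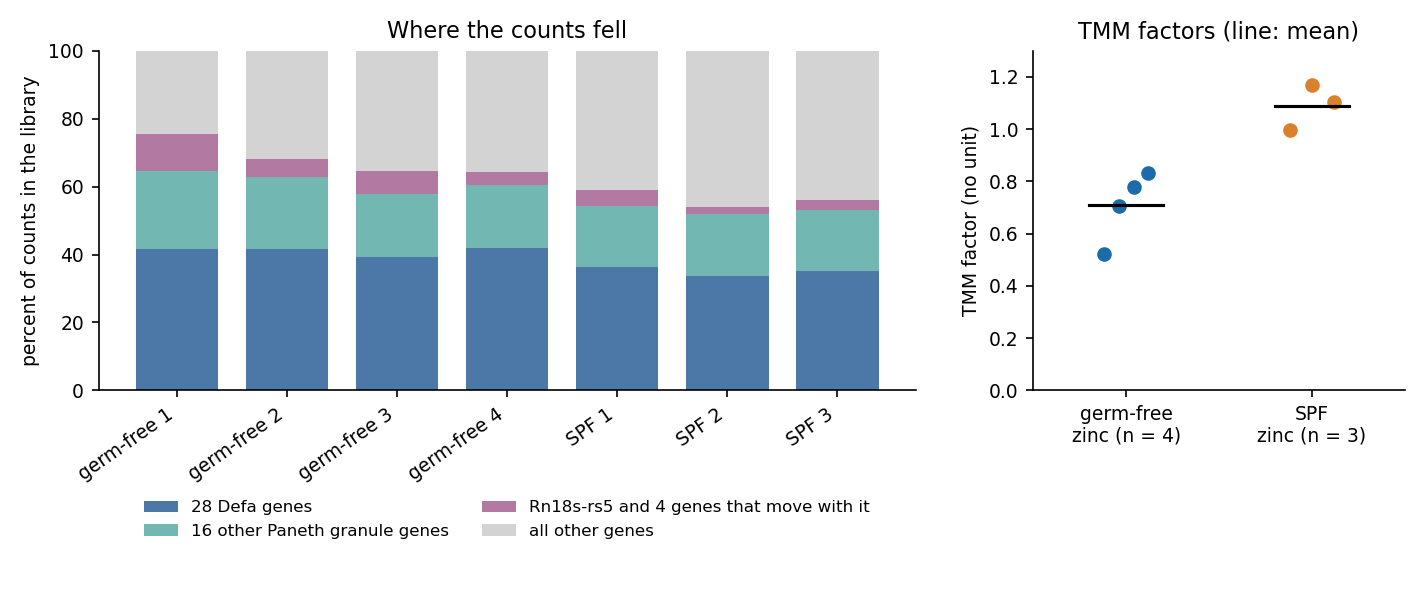
Left, percent of counts in each of the 7 libraries on the 28 Defa genes, 16 other Paneth granule genes, Rn18s-rs5 with 4 genes that move with it, and all other genes; right, the TMM factor of each library (points) with the group mean (line). All other genes held 24.5 to 35.8% of counts in the 4 germ-free libraries and 41.0 to 45.9% in the 3 SPF libraries, and every germ-free TMM factor lay below every SPF factor.

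Among the 7, germ-free replicate 1 stood apart in composition, and SPF replicate 1 and germ-free replicate 4 in single sets of genes. Germ-free replicate 1 had the lowest TMM factor (0.522, the others 0.708 to 1.17). It also had the fewest genes with counts (13747, the others 15034 to 16707) and the largest Rn18s-rs5 share (10.03%). SPF replicate 1 held 6228 counts of Xist and 0 of the Y-linked gene Ddx3y, whereas the other 6 libraries held 0 to 34 counts of Xist and 65 to 354 of Ddx3y. By these counts SPF replicate 1 read as female and the other 6 libraries as male, so sex was not balanced between the groups. Germ-free replicate 4 held the highest level of 39 of 48 interferon-stimulated genes among the 7 libraries. The values of several lists without SPF replicate 1, SPF replicate 2 or germ-free replicate 4 are given beside their counts. Markers of other cells were low but present, with goblet cell genes at 1.01 to 1.18% of counts in germ-free and 1.00 to 1.06% in SPF libraries, while immune cell markers reached at most 0.00142% and stromal and endothelial markers 0.000341%. In bulk samples, fewer cells of a type and less RNA per cell cannot be told apart.

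Of 13070 genes tested with edgeR's quasi-likelihood test and TMM factors, 453 were higher (3.47%) and 311 were lower (2.38%) in germ-free than in SPF PCs at a Benjamini-Hochberg adjusted p of 0.05. Without adjustment, 3065 genes had a p under 0.05. The scaling set the direction of many of these calls. With library totals only, which compare each gene's share of all counts, 32 genes were higher (0.245%) and 6278 were lower (48%), and the median gene moved from 0.00 to -0.61 log2 units. Of the 311 genes lower with TMM factors, 311 were also called lower with library totals. Of the 453 higher, 29 were also called higher with library totals, 205 had a log2 fold change below 0 there, and 0 were called lower. Library totals moved the median gene down, so a gene already lower with TMM factors stayed lower through that shift, and these counts do not rank the falls against the rises. The shares of all genes called, 3.47% higher and 2.38% lower with TMM factors and 0.245% and 48% with library totals, are the background for every list count below. Fold changes below are log2 values with TMM factors unless library totals are named, and CPM values are counts scaled to library size and TMM factor. Of the 13070 genes, called or not, 1404 were higher and 1086 lower in germ-free mice with no overlap of the groups in CPM. Those counts are the background where a gene is said not to overlap.

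Few calls held whichever library was left out. Of the 453 rises 15, and of the 311 falls 29, were called in all 7 fits that left out 1 library. Among the 82 called genes named here, 68 were lost without SPF replicate 2, 54 without SPF replicate 3, 29 without germ-free replicate 1, 25 without germ-free replicate 2, 17 without SPF replicate 1, 9 without germ-free replicate 3 and 5 without germ-free replicate 4, with 0 changes of direction. Calls that held in all 7 fits are said below to hold without any single library.

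The calls differed in other measured properties. Genes called higher had a median transcript length of 2846 bases and a median of 43.4 CPM, and genes called lower 5406 bases and 11.4 CPM. Over all genes tested, the median log2 fold change went from 0.19 in the shortest of 5 length classes to -0.15 in the longest, and from -0.23 in the lowest of 5 CPM classes to 0.15 in the highest. The part of length, level and 18S ribosomal RNA in the calls was not tested gene by gene. With the log2 percent of Rn18s-rs5 as a term in the fit, 124 genes were called (78 higher and 46 lower).

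**Figure D2:**
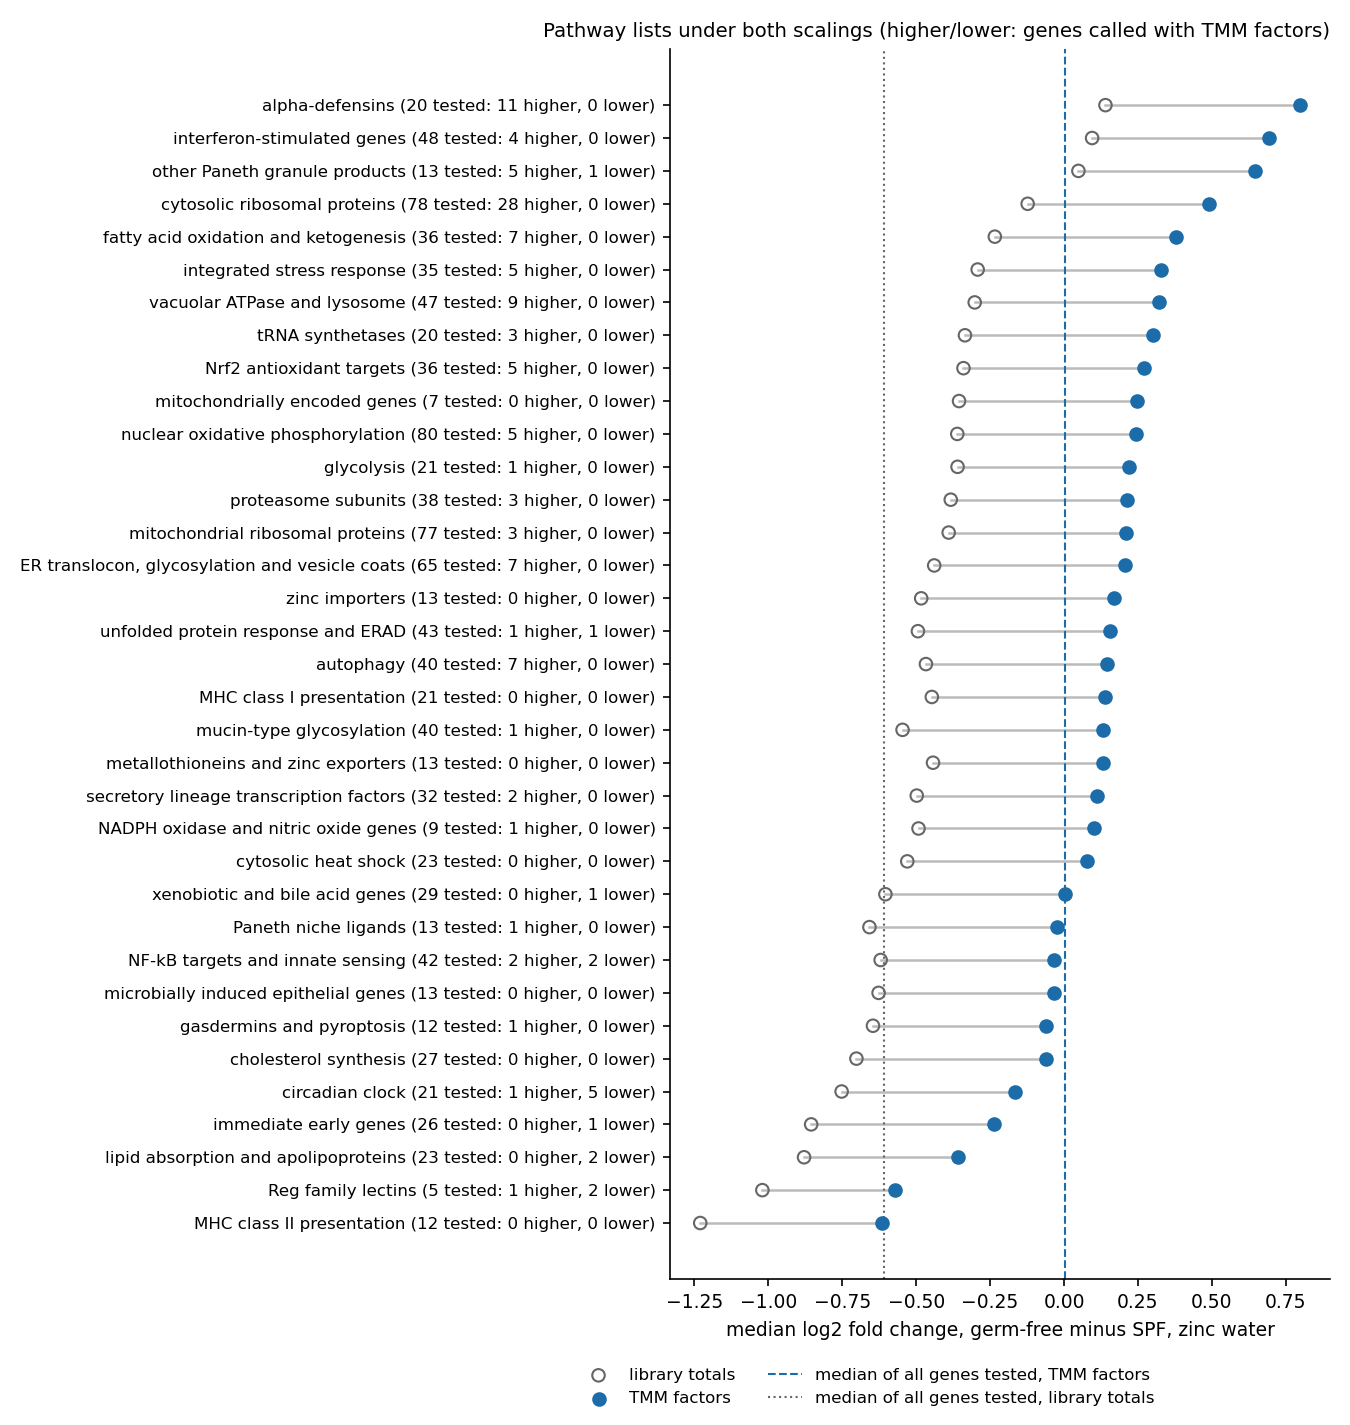
Median log2 fold change (germ-free minus SPF, zinc water) of each pathway list with TMM factors (filled) and with library totals (open), with the medians of all genes tested as vertical lines and the members tested and called with TMM factors in each label. Library totals moved every list to the left by a similar amount, so that the median stayed above 0 under both scalings only for the α-defensins, the interferon-stimulated genes and the other Paneth granule products.

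Among called protein-coding genes averaging 5 CPM or more, Reg3b, a C-type lectin that binds bacterial surfaces, fell most. Reg3b (ENSMUSG00000071356, chromosome 6, 78347640 to 78350455 in GRCm39) stood at 14.1, 7.43, 13.9 and 14.7 CPM in germ-free mice and at 174, 43.8 and 44.1 CPM in SPF mice. Every germ-free library was below every SPF library, and SPF replicate 1 was far above the other SPF libraries. The log2 fold change was -2.80 ± 0.42 (SE, edgeR adjusted p = 0.00171), and it was -3.35 with library totals. The call held without any single library, with an adjusted p of at most 0.0147 in that test. Its neighbour Reg3g, which targets Gram-positive bacteria, stood at 168, 91.1, 62.5 and 103 CPM against 461, 168 and 172 CPM. Germ-free replicate 1 reached the level of SPF replicate 2, so the groups touched. Reg3g fell by 1.34 ± 0.34 log2 units (SE, edgeR adjusted p = 0.0241) and was not called without SPF replicate 1 or 2 or without germ-free replicate 2 or 3.

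The start regions of both lectins are shown because the pair lies on 1 chromosome and both members fell. Each window, from RefSeq in GRCm38.p6, runs from 250 bases before the annotated start to 50 after it, read along the gene's strand, with matches to TATAAA on either strand in capitals. The Reg3b window lies at chr6:78370635-78370934 on the plus strand and the Reg3g window at chr6:78468825-78469124 on the minus strand.
Reg3b: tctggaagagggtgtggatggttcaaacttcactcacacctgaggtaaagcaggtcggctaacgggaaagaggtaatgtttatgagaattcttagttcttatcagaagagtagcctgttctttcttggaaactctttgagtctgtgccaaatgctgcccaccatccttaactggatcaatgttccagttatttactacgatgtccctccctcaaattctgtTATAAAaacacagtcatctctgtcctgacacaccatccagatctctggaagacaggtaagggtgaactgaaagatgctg
Reg3g: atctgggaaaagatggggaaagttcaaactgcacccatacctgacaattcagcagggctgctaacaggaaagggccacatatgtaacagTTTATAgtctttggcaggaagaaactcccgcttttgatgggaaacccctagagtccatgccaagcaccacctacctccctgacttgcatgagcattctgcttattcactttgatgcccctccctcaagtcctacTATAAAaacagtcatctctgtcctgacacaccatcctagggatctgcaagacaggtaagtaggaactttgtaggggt
The TATAAA match nearest to the start began 29 bases before it in Reg3b and 27 bases before it in Reg3g, and a further match in Reg3g began 161 bases before it. Of 27025 genes with such a window, 15.7% held the motif, as did 9.07% of the genes tested and 3 of the 5 Reg genes tested (Reg3b, Reg3g and Reg1). A match describes the letters of the window and is not a measured binding site.

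Of the other Reg genes, 1 was called, and in the opposite direction. Reg4, a lectin of secretory epithelial cells, stood at 6020, 4330, 3520 and 3460 CPM in germ-free and 2320, 1710 and 1870 CPM in SPF mice. The groups did not overlap, and Reg4 rose by 1.14 ± 0.25 log2 units (SE, edgeR adjusted p = 0.0124; 0.48, adjusted p = 0.0654, with library totals). Reg1 ranged from 0.775 to 18.2 CPM in germ-free and from 6.33 to 25.4 CPM in SPF mice, and Reg3a from 0.437 to 6.70 and from 1.19 to 5.87 CPM. Their log2 fold changes of -0.57 and -0.48 had the sign of the pair, but the groups overlapped and neither was called. Mptx2, a mucosal pentraxin of PCs, stood at 4620, 2060, 1810 and 1510 CPM against 6230, 4200 and 4330 CPM. It fell by 0.98 ± 0.28 log2 units (SE, edgeR adjusted p = 0.0404; -1.70, adjusted p = 2.17e-05, with library totals), although germ-free replicate 1 lay within the SPF range, and the call was lost in 6 of the 7 fits that left out a library.

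**Figure D3:**
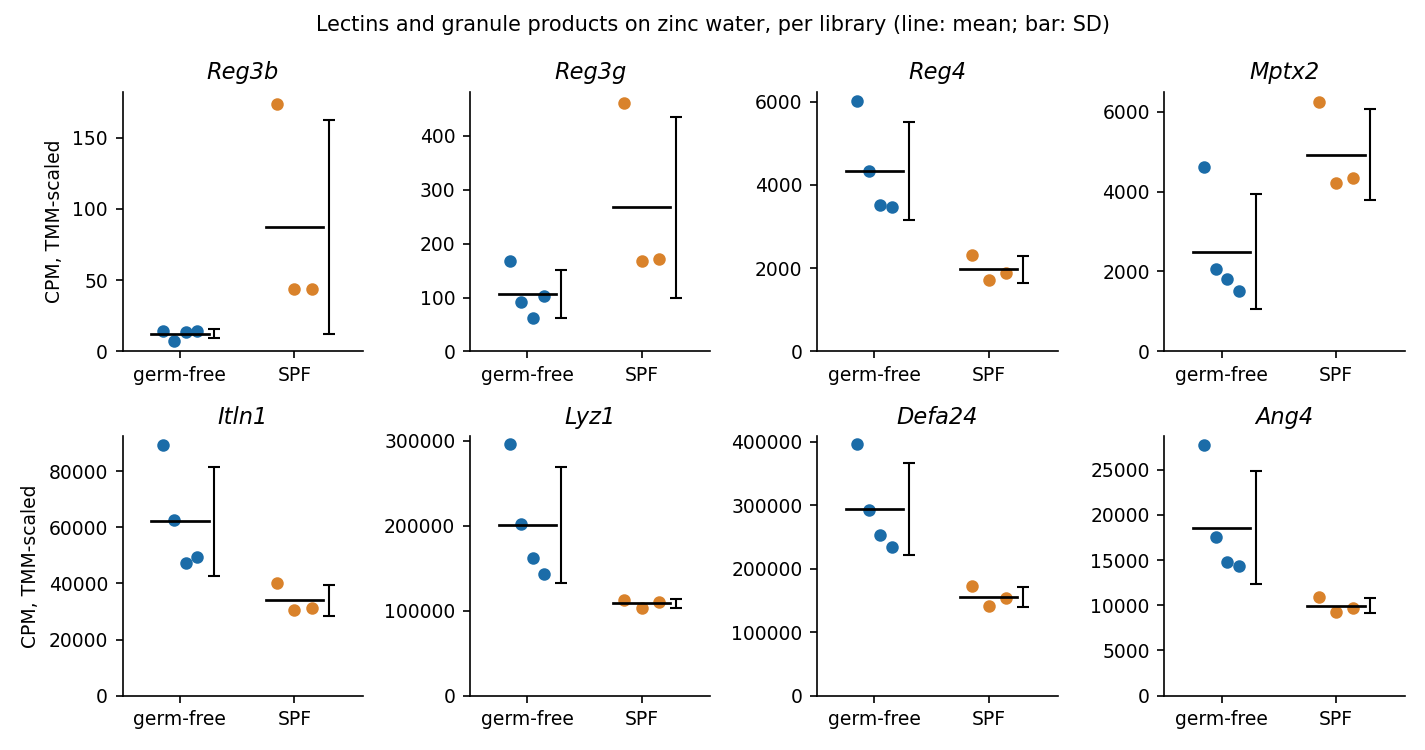
TMM-scaled CPM of 8 lectins and granule products in each library on zinc water (points), with group means (lines) and SDs (bars), germ-free n = 4 and SPF n = 3. Reg3b, Reg3g and Mptx2 were lower in germ-free mice, whereas Reg4, Itln1, Lyz1, Defa24 and Ang4 sat higher in all 4 germ-free libraries and highest in germ-free replicate 1.

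Of 20 α-defensin genes with enough counts out of 28, 11 rose and 0 fell, against 3.47% and 2.38% of all genes. Every one of the 20 had a log2 fold change above 0, from 0.41 to 1.01 with a median of 0.80. Defa24 (ENSMUSG00000064213, chromosome 8, 22224506 to 22225490), the most abundant of them, stood at 396000, 293000, 252000 and 234000 CPM in germ-free and 173000, 141000 and 154000 CPM in SPF mice. It was higher in every germ-free library, by 0.91 ± 0.24 log2 units (SE, edgeR adjusted p = 0.0253). Defa38 rose most among the called members, by 1.00 ± 0.21 (SE, adjusted p = 0.00884), and was also the only α-defensin called with library totals (0.37, adjusted p = 0.0288). With library totals the list's median was 0.14, so the family's rise was small as a share of counts and larger against the median gene. Without SPF replicate 2, 0 of the 20 were called with TMM factors while their median ranged from 0.61 to 0.88 over the 7 fits that left out 1 library, and without SPF replicate 1 the count was 8. These genes are near-identical in sequence, and how reads shared between them were counted was not given in the sources used here, so values of single members are uncertain.

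Of 13 other granule products tested, 5 rose and 1 fell (Mptx2), with a median of 0.65. With library totals 1 was higher and 1 lower, and without SPF replicate 2, with TMM factors, 0 were called. Itln1, which encodes an intelectin that binds microbial sugars, stood at 89400, 62400, 47100 and 49500 CPM against 40200, 30500 and 31100 CPM (0.87 ± 0.24, SE, adjusted p = 0.0338). Ang4, an antimicrobial ribonuclease, stood at 27800, 17500, 14800 and 14300 CPM against 10900, 9290 and 9710 CPM (0.90 ± 0.24, SE, adjusted p = 0.0303). Clps, which encodes the pancreatic lipase cofactor colipase, was also higher with library totals (1.06 ± 0.22, SE, adjusted p = 0.00814; 0.39, adjusted p = 0.0362, with library totals). Guca2b, the gut peptide uroguanylin, stood at 536 to 765 CPM against 339 to 441 CPM (0.78 ± 0.16, SE, adjusted p = 0.00809). Lyz1, the PC lysozyme, stood at 296000, 202000, 162000 and 143000 CPM against 113000, 103000 and 110000 CPM. Its groups did not overlap, but its log2 difference of 0.89 ± 0.27 (SE) missed the threshold (edgeR adjusted p = 0.0545). With library totals Itln1, Guca2b and Lyz1 had log2 fold changes of 0.20, 0.16 and 0.20 and were not called. The metalloproteinase Mmp7, which activates the α-defensins in the mouse, stood at 3620 to 6400 CPM against 3070 to 4110 CPM, with overlap, and was not called. The phospholipase Pla2g2a, at 349 to 724 against 311 to 324 CPM, was not called either (adjusted p = 0.112).

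Several clock genes fell. Of 21 tested, 5 fell and 1 rose, 23.8% lower against 2.38% of all genes. Per2, a repressor of the loop (ENSMUSG00000055866, chromosome 1, 91343700 to 91387069), stood at 4.45, 5.79, 4.01 and 4.46 CPM in germ-free and 17.6, 23.2 and 19.4 CPM in SPF mice. It was 4.26-fold lower with a wide gap between the groups (log2 fold change -2.09 ± 0.29, SE, edgeR adjusted p = 0.000871), and the call held without any single library. Nr1d1, which encodes the repressor REV-ERBα (ENSMUSG00000020889, chromosome 11, 98658752 to 98666188), moved the other way, at 26.3, 33.0, 15.5 and 27.5 CPM against 7.99, 7.25 and 7.96 CPM. It rose by 1.73 ± 0.35 log2 units (SE, adjusted p = 0.00809), and by 1.10 with library totals (adjusted p = 0.0114). The Nr1d1 call was lost without SPF replicate 2, and its gene overlaps Thra on the opposite strand, and whether the counting used strand was not stated.

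The remaining arms of the loop split in the same 2 directions. Npas2, a partner of BMAL1, stood at 6.97 to 12.6 CPM in germ-free against 17.6 to 19.5 CPM in SPF mice and fell by 0.89 ± 0.18 log2 units (SE, adjusted p = 0.00809). The repressors Cry1 (4.25 to 6.78 against 10.3 to 12.3 CPM) and Cry2 (2.34 to 3.83 against 5.51 to 8.18 CPM) fell by 0.94 ± 0.26 (SE, adjusted p = 0.0348) and 1.03 ± 0.25 (SE, adjusted p = 0.0169). Cry1 was lost in 6 of the 7 fits that left out a library. Bmal1 stood at 9.84 to 14.2 against 17.1 to 20.2 CPM, with no overlap, and missed the threshold (-0.61 ± 0.19, SE, adjusted p = 0.0513). Nr1d2, the paralogue of Nr1d1, stood at 24.4 to 48.2 against 16.2 to 23.1 CPM, also with no overlap (0.99 ± 0.31, SE, adjusted p = 0.0574). The output genes Dbp and Tef and the repressors Per1 and Per3 overlapped between the groups and were not called (Per1 24.5 to 34.9 against 27.7 to 40.5 CPM). With library totals 14 members were lower and 1, Nr1d1, was higher, while the median gene stood at -0.61. The list was chosen with these results known, and a difference in the time of day of collection cannot be told apart from the groups because the labels give no time.

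The start regions of a repressor that fell and of the gene that rose are shown for the letters CACGTG, the canonical E-box to which BMAL1 with its partner binds. Both are RefSeq windows in GRCm38.p6 as above, Cry1 at chr10:85185005-85185304 and Nr1d1 at chr11:98775328-98775627, each on the minus strand, with the motif in capitals where present.
Cry1: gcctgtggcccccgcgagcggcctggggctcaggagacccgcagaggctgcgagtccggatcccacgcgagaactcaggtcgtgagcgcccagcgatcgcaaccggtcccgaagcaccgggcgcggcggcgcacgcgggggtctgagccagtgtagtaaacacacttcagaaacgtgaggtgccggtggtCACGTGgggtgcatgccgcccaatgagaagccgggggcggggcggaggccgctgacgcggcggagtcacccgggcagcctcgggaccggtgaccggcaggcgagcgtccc
Nr1d1: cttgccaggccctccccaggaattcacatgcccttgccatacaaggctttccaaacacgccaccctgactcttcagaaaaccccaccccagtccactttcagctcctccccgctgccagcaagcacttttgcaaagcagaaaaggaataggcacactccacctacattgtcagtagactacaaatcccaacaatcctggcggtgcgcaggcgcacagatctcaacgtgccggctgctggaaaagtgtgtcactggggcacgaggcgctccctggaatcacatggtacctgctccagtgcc
Cry1 held 1 match, which began 60 bases before the start, and these letters were not in the Nr1d1 window. CACGTG reads the same on both strands. Among the 15 clock genes tested that had a window, 4 held it (Cry1, Ciart, Per1 and Tef), against 8.09% of all 27025 genes and 11.8% of the genes tested. Of these 4, only Cry1 was called. Per2 had no window in the table.

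**Figure D4:**
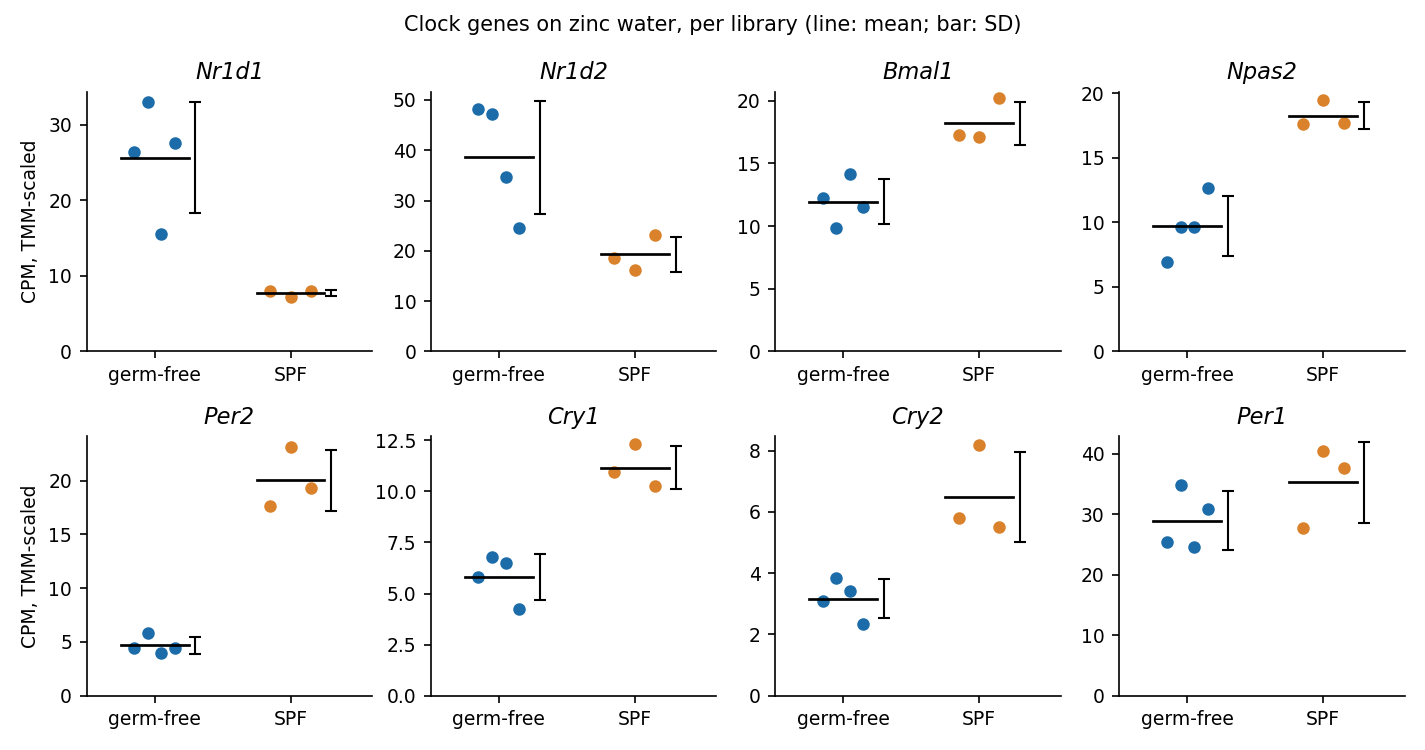
TMM-scaled CPM of 8 clock genes in each library on zinc water (points), with group means (lines) and SDs (bars), germ-free n = 4 and SPF n = 3. Nr1d1 and Nr1d2 were higher in all 4 germ-free libraries, Bmal1, Npas2, Per2, Cry1 and Cry2 were lower in all 4, with the widest gap in Per2, and Per1 overlapped between the groups.

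Of 36 members tested in a list of fatty acid oxidation and ketogenesis, 7 rose and 0 fell, 19.4% against 3.47% of all genes, and 34 had a log2 fold change above 0. Acaa2, the last thiolase of the mitochondrial spiral, stood at 136, 131, 96.0 and 115 CPM in germ-free and 73.8, 46.9 and 54.0 CPM in SPF mice. It rose by 1.04 ± 0.15 log2 units (SE, edgeR adjusted p = 0.00171; 0.42, adjusted p = 0.0296, with library totals) and held without any single library. Acadl, which dehydrogenates long-chain acyl-CoA, stood at 75.3, 73.7, 46.1 and 43.5 against 35.7, 21.1 and 22.4 CPM (1.17 ± 0.21, SE, adjusted p = 0.00473), and Acot1, a cytosolic acyl-CoA thioesterase, stood at 8.13 to 17.8 against 3.48 to 6.44 CPM (1.32 ± 0.29, SE, adjusted p = 0.0124). Both were also called with library totals, at 0.53 and 0.75. The carnitine transferase Cpt2, the trifunctional protein subunit Hadha and the enzymes Decr1 and Eci2 made up the other calls, at 0.70, 0.48, 0.58 and 0.63. With library totals 3 members were higher and 5 lower. Without SPF replicate 1 the count with TMM factors was 7, and without SPF replicate 2 it was 1.

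Ribosomal protein genes made up the largest count of rises among the lists. Of 78 cytosolic ribosomal protein genes, 28 rose and 0 fell with a median of 0.49, whereas with library totals 0 were higher and 3 were lower with a median of -0.12. Without SPF replicate 2 the 28 rises became 1, with a median of 0.36. Rps4x was the steadiest, at 715, 730, 721 and 725 CPM in germ-free against 455, 386 and 463 CPM in SPF mice (0.73 ± 0.12, SE, adjusted p = 0.00454), and was called without any single library. Ribosomal protein transcripts are short, and the shortest of the 5 length classes had a median of 0.19. Among mitochondrial ribosomal proteins 3 of 77 rose (3.9%), among nuclear oxidative phosphorylation genes 5 of 80 and among proteasome subunits 3 of 38, with 0 falls in each. The first of these shares is close to the 3.47% of all genes, and with library totals 0 members were higher and 22, 24 and 14 lower in the same order. Of the 7 mitochondrially encoded genes tested 0 were called in edgeR, DESeq2 or limma-voom, and 0 had an unadjusted p under 0.05. The lowest p among them was that of mt-Nd5, a subunit of complex I (516 to 1440 against 1160 to 1450 CPM, adjusted p = 0.317), followed by mt-Cytb and mt-Nd4 at adjusted p of 0.477 and 0.492.

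Calls with TMM factors in the secretory and degradative lists were all rises. They took 10.8, 19.1 and 17.5% of the 3 lists below, in order, against 3.47% of all genes. Of 65 genes of the ER translocon, glycosylation and vesicle coats, 7 rose, led by Tmed3, a cargo receptor of COPII and COPI vesicles (126 to 183 against 95.6 to 110 CPM, 0.63 ± 0.15, SE, adjusted p = 0.0181). Of 47 vacuolar ATPase and lysosome genes, 9 rose, among them Glb1, the lysosomal β-galactosidase, at 102, 90.7, 76.9 and 70.5 against 55.3, 50.6 and 47.7 CPM (0.73 ± 0.13, SE, adjusted p = 0.00473), and the protease Ctsd (0.67 ± 0.13, SE, adjusted p = 0.00675). Of 40 autophagy genes 7 rose, including the ATG8 family members Map1lc3a (10.9 to 12.7 against 3.5 to 6.28 CPM, 1.2 ± 0.27, SE, adjusted p = 0.0126), Gabarap (0.62) and Map1lc3b (0.51) and the receptor Sqstm1 (0.68). With library totals 0 members of these 3 lists were higher and 34, 13 and 20 were lower, where 48% of all genes were lower. Without SPF replicate 2 the 3 lists had 0, 1 and 0 rises, and without germ-free replicate 4 they had 14, 14 and 7.

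The unfolded protein response list had 1 rise and 1 fall among 43 with TMM factors (2.33% each, against 3.47% and 2.38% of all genes). With library totals it had 0 higher and 22 lower, where 48% of all genes were lower. Without germ-free replicate 4 it had 5 rises and 1 fall. Herpud1, an ER membrane protein of ER-associated degradation, stood at 519, 475, 363 and 395 CPM against 206, 208 and 218 CPM and was higher in every germ-free library (1.06 ± 0.19, SE, adjusted p = 0.00473, held without any single library). Pdia2, a protein disulfide isomerase, stood at 56.5, 33.9, 21 and 26.5 against 88.7, 68.8 and 63.2 CPM and fell by 1.11 ± 0.25 on the log2 scale (SE, adjusted p = 0.0122). In the integrated stress response, the ATF4 programme of amino acid supply, 5 of 35 rose (14.3%) and 0 fell. These were the pseudokinase Trib3 (1.75 to 6.91 against 0.521 to 1.55 CPM, 2.05 ± 0.48, SE, adjusted p = 0.0149), both chains of the large neutral amino acid transporter, Slc7a5 (0.72) and Slc3a2 (0.64), asparagine synthetase Asns (0.65) and the folate enzyme Mthfd2 (0.54). With library totals 1 member of the list, Trib3, was higher (1.49, adjusted p = 0.0165) and 9 were lower. Of 20 tRNA synthetases 3 rose, or 15% (Sars1, Rars1 and Gars1, 0.46 to 0.55), and these had values below 0 with library totals.

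Of 36 Nrf2 target genes 5 rose, 13.9% against 3.47% of all genes. These were the glutathione transferases Gstm1 (1.04), Gstm2 (39.8 to 49.0 against 19.5 to 27.0 CPM, 0.96 ± 0.17, SE, adjusted p = 0.00473) and Gstp1 (0.73) and the ferritin chains Fth1 (0.55) and Ftl1 (0.57). With library totals 0 members of this list were higher and 7 lower, where 48% of all genes were lower. Cytosolic heat shock genes had 0 calls among 23 in edgeR, 2 at an unadjusted p under 0.05 and 2 calls each in DESeq2 and limma-voom, the nearest in edgeR being the co-chaperone Bag3 (adjusted p = 0.0660). Of 21 glycolysis genes 1 rose, Aldoc (2.55 to 4.37 against 0.734 to 1.71 CPM). Of the 40 mucin-type glycosylation genes 1 rose, B3gnt3 (0.72). With library totals the heat shock, glycolysis and glycosylation lists had 9, 6 and 14 members lower and 0 higher. Cholesterol synthesis had 0 calls among 27 with TMM factors in edgeR (1 at an unadjusted p under 0.05; 0 in DESeq2 and 1 in limma-voom) and 19 lower with library totals. Of 26 immediate early genes 12 had an unadjusted p under 0.05, and 0 were higher and 17 lower with library totals. With TMM factors 1 fell, Zfp36, which encodes a protein that destabilises cytokine mRNA (35.1 to 65.8 against 82.0 to 149 CPM, -1.08 ± 0.32, SE, adjusted p = 0.0468), and it was lost in 6 of the 7 fits that left out a library.

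On zinc water the rise of the interferon-stimulated list rested mostly on a single library. The list had 4 rises among 48 and a median of 0.69, but germ-free replicate 4 summed to 1333 CPM over the list while the other 6 libraries summed to 500.3 to 589 CPM. Isg15, a ubiquitin-like modifier, stood at 0.194, 0.547, 0.826 and 9.14 CPM in germ-free and 0.356 to 0.489 CPM in SPF mice. Irf7, the master regulator of type I interferon, stood at 15.3, 14.2, 6.72 and 88.5 CPM against 7.99, 11.9 and 8.19 CPM. Neither was called, at adjusted p of 0.0744 and 0.0941. Sp100, a nuclear body protein, was called at 3.5 ± 0.96 log2 units (SE, adjusted p = 0.0345) from 0.387, 1.09, 0.826 and 7.76 CPM against 0 to 0.372 CPM, and was not called without germ-free replicate 4. Without that library the median of the list was -0.15, with 1 member higher and 1 lower. Trim25, a ubiquitin ligase of RNA sensing, was another called member, at 101, 98.4, 80.9 and 123 against 69.8, 66.8 and 67.5 CPM (0.57 ± 0.14, SE, adjusted p = 0.0185; -0.04 and not called with library totals).

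**Figure D5:**
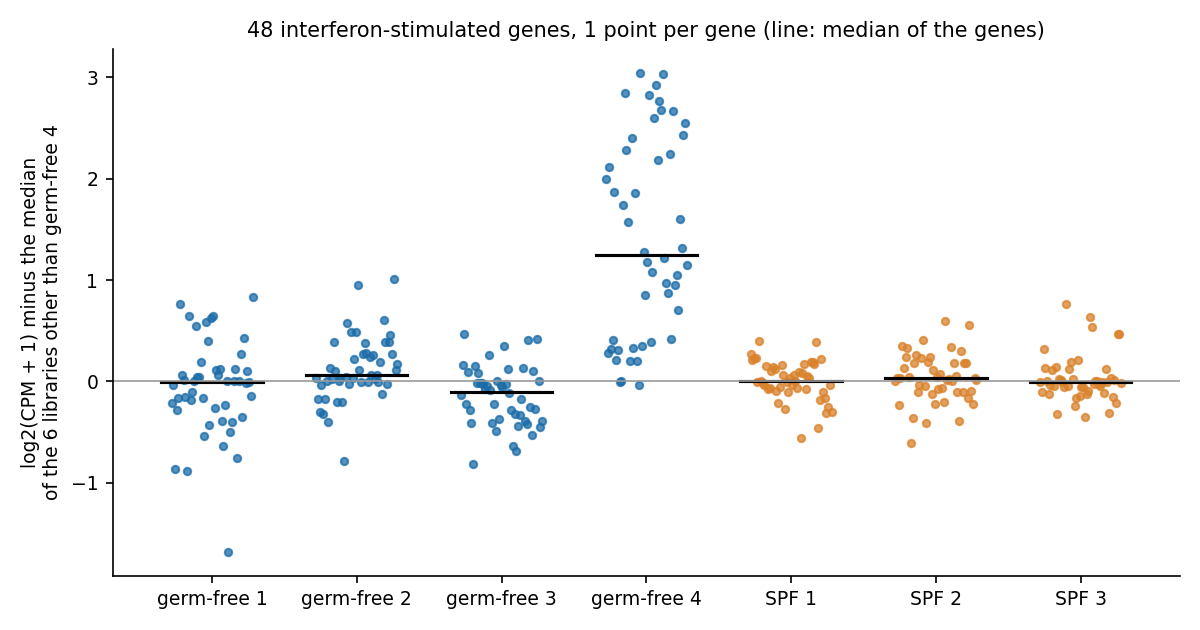
For 48 interferon-stimulated genes (points), log2(CPM + 1) in each library minus the median of the 6 libraries other than germ-free replicate 4, with the median over genes as a line. In germ-free replicate 4 the median was 1.25 and 29 genes were more than 1 log2 unit up, while the medians of the other 6 libraries lay between -0.10 and 0.07.

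Few other genes of microbial sensing were called with TMM factors. The falls with library totals given below stand beside 48% of all genes lower under that scaling. Of 13 genes tested from a list induced by microbes in the epithelium, other than the Reg genes, 0 were called in edgeR, DESeq2 or limma-voom and 1 had an unadjusted p under 0.05, and at their lowest p stood Duoxa2, the maturation factor of the epithelial oxidase DUOX2 (2.13 to 2.30 against 0.652 to 1.14 CPM, 1.28 ± 0.52, SE, adjusted p = 0.133). Pigr, the receptor that carries IgA to the lumen, stood at 706 to 951 against 849 to 1060 CPM, with overlap (-0.20 ± 0.14, SE, adjusted p = 0.391), and was lower with library totals, where the groups did not overlap (-0.79, adjusted p = 0.00348). It was 1 of 2 members of that list lower with library totals. MHC class II genes had 0 calls among 12 in edgeR, 2 at an unadjusted p under 0.05 and 1 call each in DESeq2 and limma-voom. MHC class I genes had 0 among 21 in edgeR, 5 at an unadjusted p under 0.05, 1 call in DESeq2 and 4 in limma-voom, 3 of them higher. With library totals 3 class II and 5 class I genes were lower and 0 were higher. B2m, the light chain of class I, stood at 212 to 250 against 166 to 194 CPM and missed the threshold (0.36 ± 0.11, SE, adjusted p = 0.0616). Of 42 NF-kB targets and innate sensors, 2 rose and 2 fell (4.76% each, against 3.47% and 2.38% of all genes). With library totals 0 of them were higher and 19 lower. Naip6, an inflammasome receptor of flagellin (12.8, 21.4, 18.9 and 29.4 against 30.2, 41.9 and 42.7 CPM), and the inhibitor-like regulator Nfkbiz (4.07 to 13.0 against 15.1 to 22.3 CPM) fell by 0.87 ± 0.20 (SE, adjusted p = 0.0149) and 0.96 ± 0.24 (SE, adjusted p = 0.0238). The TLR4 partner Ly96 (1.81 to 4.96 against 0.996 to 1.55 CPM, 1.56 ± 0.40, SE, adjusted p = 0.0238) and the adaptor Myd88 (0.55) rose. Rac1, a GTPase that also serves the NADPH oxidases, rose by 0.57 ± 0.12 (SE, adjusted p = 0.00930; -0.03 and not called with library totals), the 1 call among 9 genes of that list, and Ninj1, which ruptures the membrane in pyroptosis, was the 1 call among 12 of its list (0.68 ± 0.18, SE, adjusted p = 0.0312).

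With TMM factors no zinc handling gene was called between the groups in edgeR's test. Among 13 metallothioneins and zinc exporters and 13 zinc importers there were 0 calls in edgeR's test and 0 in DESeq2, while each list had 2 members at an unadjusted p under 0.05 and 2 calls in limma-voom, 1 in each direction. With library totals 7 metallothioneins and exporters and 6 importers were lower and 0 were higher, where 48% of all genes were lower. The list medians there were -0.44 and -0.48, against -0.61 for all genes. The zinc-binding metallothionein Mt1 stood at 511, 442, 1060 and 1100 CPM in germ-free and 461, 493 and 546 CPM in SPF mice, and Mt2 at 473, 435, 966 and 846 against 420, 484 and 580 CPM. In both genes germ-free replicates 3 and 4 were above the SPF range, and replicates 1 and 2 were within or just below it. The log2 differences were 0.64 ± 0.31 (SE, adjusted p = 0.207) and 0.46 ± 0.37 (SE, adjusted p = 0.484). The importer Slc39a4, which takes up dietary zinc, stood at 12.7 to 14.7 against 6.97 to 15.8 CPM (adjusted p = 0.252).

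Secretory lineage transcription factors and niche ligands held 2 and 1 rises and 0 falls, 6.25% and 7.69% higher against 3.47% of all genes. Among 32 secretory lineage transcription factors, Cdx1 (123 to 174 against 85.6 to 97.4 CPM, 0.63 ± 0.16, SE, adjusted p = 0.0206) and Foxa3 (0.58 ± 0.17, SE, adjusted p = 0.0453) rose. Bhlha15, the secretory cell factor MIST1, stood at 179 to 260 against 155 to 162 CPM and missed the threshold (adjusted p = 0.0560). Of 13 niche ligands, Wnt3, the Wnt that PCs present to stem cells, rose by 0.58 ± 0.15 (SE, adjusted p = 0.0256), from 70.9 to 79.1 CPM in SPF to 95.1 to 144 CPM in germ-free mice. With library totals, Cdx1, Foxa3 and Wnt3 had log2 fold changes of 0.04, -0.07 and -0.07 and were not called.

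Markers of other epithelial cells moved as well, and their part in the results above was not tested. Among 11 goblet cell genes 4 rose and 0 fell, 36.4% higher against 3.47% of all genes. The rises were Fcgbp, which encodes an IgG Fc-binding mucus protein (332, 400, 357 and 229 against 145, 149 and 123 CPM, 1.25 ± 0.24, SE, adjusted p = 0.00552), the trefoil peptide Tff3 (1.03), Bcas1 (0.96) and Spink4 (0.78). With library totals 0 goblet cell genes were higher and 2 lower, where 48% of all genes were lower. Of 10 tuft cell genes, 10 had a log2 fold change below 0 and 2 fell, Sh2d6 (-1.16) and the taste channel Trpm5 (-0.99), with a median of -0.73. Their summed share of all counts, without TMM factors, was 0.00904 to 0.0122% against 0.0257 to 0.0362%. With library totals their median was -1.38, beside -0.61 for all genes. Of 22 stem and cycling genes 3 fell, Mki67 (-0.75), Rrm2 (-0.64) and Top2a (-0.61), and the list's median was -0.13. Their summed share of all counts, which carries no TMM factor, was 0.247 to 0.448% against 0.509 to 0.549%. On that scale, library totals, the list's median was -0.75, beside -0.61 for all genes. Of 16 enteroendocrine genes, Gcg, which encodes proglucagon (1.75 to 4.13 against 6.33 to 16.6 CPM), fell by 2.05 ± 0.51 (SE, adjusted p = 0.0207) and Sct, secretin (27.5 to 40.1 against 16 to 19.8 CPM), rose by 0.93 ± 0.20 (SE, adjusted p = 0.0115).

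Enterocyte genes were uneven within both groups. Sis, the brush border sucrase-isomaltase, stood at 7.17, 7.98, 24.0 and 20.2 CPM in germ-free and 72, 72.1 and 31.6 CPM in SPF mice and fell by 1.96 ± 0.39 log2 units (SE, adjusted p = 0.00722), the 1 call among 23 brush border genes. Of 23 lipid absorption genes 2 fell, the sterol importer Npc1l1 (4.84, 4.37, 10.1 and 19.3 against 22.6, 29.7 and 21.4 CPM, -1.31 ± 0.33, SE, adjusted p = 0.0238) and Apob, the chylomicron protein (24.4 to 53.4 against 50.5 to 104 CPM, -0.93 ± 0.25, SE, adjusted p = 0.0337). The brush border list summed to 0.0631 to 0.239% of counts in germ-free and 0.178 to 0.271% in SPF libraries. With library totals 11 brush border and 9 lipid absorption genes were lower and 0 were higher, where 48% of all genes were lower. Without germ-free replicate 4, with TMM factors, the brush border list had 5 falls and a median of -1.20, against -0.54 with it, and the lipid absorption list had 5 falls. Cyp3a25, a detoxifying cytochrome P450, was the 1 fall among 29 xenobiotic and bile acid genes (0.765 to 4.36 against 6.10 to 12.7 CPM, -1.61 ± 0.46, SE, adjusted p = 0.0387), and was lost in 5 of the 7 fits that left out a library. Without germ-free replicate 4 that list had 5 falls, and with library totals 11 members were lower.

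The other genes with large changes belonged to no single list. Nfasc, the cell adhesion protein neurofascin, stood at 1.36, 1.64, 1.65 and 1.59 CPM against 12.8, 9.53 and 6.48 CPM and fell by 2.60 ± 0.26 log2 units (SE, adjusted p = 1.14e-05), the smallest adjusted p among the falls named here. The falls also included C1qtnf1 (7.20 to 13.7 against 20.8 to 30.7 CPM, -1.52 ± 0.24, SE), the nucleoside transporter Slc28a2 (2.76 to 4.65 against 6.90 to 12.1 CPM, -1.50 ± 0.27, SE), the matricellular protein gene Ccn1 (-1.64), the nuclease gene Ankle1 (-1.39) and Strip2 (-1.38). Among the rises, Gm1123 stood at 1250, 975, 864 and 580 against 352, 374 and 371 CPM (1.32 ± 0.20, SE, adjusted p = 0.00171), the carboxylesterase Ces1c at 112, 76.4, 47.2 and 49.7 against 26.7, 30.9 and 28.6 CPM (1.3 ± 0.24, SE, adjusted p = 0.00488) and the cold-inducible RNA-binding protein gene Rbm3 at 175, 176, 196 and 139 against 66.1, 69.3 and 86.6 CPM (1.21 ± 0.19, SE, adjusted p = 0.00214). All 3 were also higher with library totals, at 0.65, 0.60 and 0.58. Cyp2e1, a cytochrome P450 (5.31 to 11.2 against 2.42 to 4.81 CPM, 1.37), and Fkbp5, a glucocorticoid-induced co-chaperone (21.6 to 53.6 against 12.2 to 14.3 CPM, 1.23), rose as well. Lars2 stood at 10500, 4060, 4840 and 3220 against 2430, 1040 and 1200 CPM (1.86 ± 0.36, SE, adjusted p = 0.00606) and stood in the same order as Rn18s-rs5 over the libraries within each group. Without SPF replicate 1, which held Xist, 326 genes were higher and 227 lower, of which 289 and 195 were among the 453 and 311.

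The same contrast on Milli-Q water, 3 germ-free against 3 SPF libraries that share no sample with the zinc libraries, called 1654 genes higher (12.7%) and 1515 lower (11.6%). Of the 453 genes higher on zinc water 350 were higher there too, which is 77.3% of the zinc list and 21.2% of the Milli-Q list, and of the 311 lower 165 were lower there, 53.1% and 10.9%. Opposite calls were made for 1 and 1 gene. Across the 13070 genes the log2 fold changes on the 2 waters correlated with r = 0.421, a value over genes, which are not independent replicates. The difference of the germ-free effect between the waters was called for 0 genes in edgeR's interaction test, with 1741 at an unadjusted p under 0.05, for 34 in DESeq2 and for 354 in limma-voom. Per2 had log2 fold changes of -2.09 on zinc and -2.12 on Milli-Q water (difference 0.02 ± 0.43, SE) and Acaa2 of 1.04 and 1.09 (-0.05 ± 0.22, SE). Reg3b and Reg3g had -2.80 and -1.34 on zinc against -4.32 and -2.93 on Milli-Q water, with differences of 1.52 ± 0.66 and 1.6 ± 0.51 (SE) that missed the threshold at adjusted p of 0.330 and 0.242. Defa24 had 0.91 and 1.45 (-0.54 ± 0.34, SE, adjusted p = 0.491). Fcgbp and Fkbp5 had 1.25 and 1.23 on zinc against -0.25 and -0.34 on Milli-Q water, and neither difference was called.

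Antibiotics on zinc water gave a further set of values, in a contrast that shares the 3 SPF libraries with the germ-free contrast. The antibiotics group held replicates 1 to 4 from SPF mice with 7 weeks on the same zinc water and 3 weeks on antibiotics. Against these libraries, Reg3b had a log2 fold change of -3.64 ± 0.43 (SE) after antibiotics and -2.80 ± 0.42 (SE) in germ-free mice, and Reg3g of -2.90 ± 0.35 and -1.34 ± 0.34 (SE). For Per2 the values were -0.70 ± 0.26 (edgeR adjusted p = 0.0891) and -2.09 ± 0.29 (SE). For Nr1d1 they were -0.03 ± 0.35 and 1.73 ± 0.35 (SE). Acaa2 stood at 0.11 ± 0.15 and 1.04 ± 0.15 (SE), and Defa24 at -0.46 ± 0.23 and 0.91 ± 0.24 (SE). The difference between these contrasts was not tested.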

How the data were processed

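PCs from the small intestine had been sorted by FACS, RNA extracted with a column kit, and stranded mRNA libraries made per the labels. The authors deposited raw counts per Ensembl gene for 21 libraries in a single table, with no normalization. The submitters' processing notes name FastQC 0.12.0, STAR 2.7.0a and DESeq2 with the mm39 build; how reads were counted, by strand or not, and what became of multi-mapping reads, were not given in the sources used here. Of 55414 identifiers, 54749 matched GENCODE M39 (GRCm39), which gave symbols, lengths and coordinates, and the rest held 0.016% of counts.

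Groups came from the labels, and 0 columns were left unmatched. The test was edgeR's quasi-likelihood F-test (edgeR 4.0.16 in R 4.3.3, with limma 3.58.1). The fit held all 21 libraries, 1 mean for each of 6 groups and TMM factors, over the 13070 genes that filterByExpr kept. The other groups entered so that the spread was estimated from all libraries. Benjamini-Hochberg adjustment ran over all genes tested, with a threshold of 0.05. Counts of 9888174 to 12936001 per library limit the precision of low genes. The Defa share was compared by a two-sided exact permutation test, and medians of lists carry no test. Alternatives were library totals only, DESeq2-type size factors, DESeq2 1.42.0, TMM factors computed without Defa genes, weighted limma-voom, other filters, fits of only the 7 libraries with and without the replicate number as a block, and leaving out each library. Fits with library totals and a library left out, library totals without 5 ribosomal RNA related genes, a term for Rn18s-rs5, the difference between waters in each alternative and the Defa share without Rn18s-rs5 were added after seeing the data.

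The members and the 44 lists were chosen with earlier results of these data known. Genes were named by a rule: the 12 largest rises and falls among called protein-coding genes averaging 5 CPM or more whose groups did not overlap, the 3 members with the smallest p in each of 35 pathway lists, and Reg3b, Reg3g, Defa24, Lyz1, Itln1, Mt1 and Mt2. Further members given with values (such as Nr1d2, Bmal1, Cry1, Cry2, Mptx2, Ang4, Isg15, Irf7, Tff3 and Trpm5) were chosen after their values were seen, as were the 4 start regions shown. Some members that the lists count are not reported here singly. On simulated counts of this comparison with 13070 genes, edgeR recovered 14.9% of genes changed 1.5-fold, 67.2% of those changed 2-fold and 89.4% of those changed 4-fold, and 3.39% of its calls were false. The counts were drawn independently for each gene around its mean over all 21 libraries, with 200 genes changed. No simulated library was made to stand apart, so these percents do not give the share of false calls in the real data. Python 3.11.15 with matplotlib 3.10.9 drew the figures.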

Additional observations from a re-analysis of the deposited data

Results flagged for a closer look

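Over the 128 values checked in the germ-free group (124 named genes and 4 shares of counts), 6 had a library far from the other 3, and chance alone sets about 1 in 20 such groups apart. Germ-free replicate 4 stood above the rest for Sp100 at 7.76 CPM (the others 0.387 to 1.09), for the sialyltransferase gene St6galnac2 at 10.9 CPM (2.32 to 3.61) and for Bst1, an ectoenzyme of the PC niche signal, at 2.44 CPM (the others listed at 0). Germ-free replicate 2 stood apart for Fkbp5 at 53.6 CPM (21.6 to 25) and for Reg3b at 7.43 CPM (13.9 to 14.7). Germ-free replicate 3 had the lowest Defa share, 39.3% of counts. No named gene had a called difference of the germ-free effect between the waters in edgeR's interaction test.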

How the results depend on the processing

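The 764 calls moved with the fit. They were 6310 with library totals only, 5642 with library totals without 5 ribosomal RNA related genes, 1212 with DESeq2, 2080 with limma-voom, 14 in a fit of only the 7 libraries and 124 with the 18S term, and 51 (without SPF replicate 2) to 1567 (without germ-free replicate 4) when a library was left out. Without SPF replicate 3 they were 160, and without germ-free replicates 1 and 2 they were 369 and 401. With DESeq2-type size factors, TMM factors without the Defa genes and a stricter filter the count stayed within 1.5 times. With library totals it was 3389 (without SPF replicate 2) to 7576 (without germ-free replicate 4). In all 7 such fits with TMM factors, 15 of the 453 rises and 29 of the 311 falls remained, Nfasc, Per2, Reg3b, Acaa2, Gm1123, Rbm3, Rps4x, Glb1, Herpud1, Ces1c and Fcgbp among them. The difference between the waters, 0 genes in edgeR, was 34 in DESeq2, 354 in limma-voom, 429 without a filter and 0 to 770 when a library was left out (770 without germ-free replicate 4), and with library totals 0 to 884 (884 without germ-free replicate 1 and 450 without replicate 4). The Defa share differed by 5.44 to 6.73 percentage points when a library was left out and kept its direction in every alternative. The same-numbered pairs had deviations correlated at 0.11, -0.05 and -0.01, against -0.09 to 0.13 for pairs of unlike number. In a fit of only the 7 libraries, 14 genes were called without and 2142 with the replicate number as a block. Number 4 occurs there only in germ-free mice, so its block term takes up germ-free replicate 4 alone. The 2142 are therefore not comparable with the 764. With library totals, 17 named rises turned to values below 0 that were not called, namely Trim25 (-0.037), Rac1 (-0.0343), Tmed3 (-0.0024), Krtcap2 (-0.0923), Dad1 (-0.12), Sdhc (-0.12), Mrpl16 (-0.0773), Mrps30 (-0.0894), Psmc2 (-0.0972), Psmb1 (-0.0807), Psmb3 (-0.0749), Sars1 (-0.0592), Rars1 (-0.12), Gars1 (-0.17), Fth1 (-0.064), Wnt3 (-0.0709) and Foxa3 (-0.0679). The cause of these moves was not tested. Depth limits genes of a few CPM, where few counts lie behind each value.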
